A study of Homo sapiens with 18 samples.

Results

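The genes described here are 10 cytosolic heat shock chaperones, chosen by name from the 26443 genes of an RNA sequencing study of LNCaP: CRYAB, HSPB1, HSPB8, HSPA1A, HSPA1B, HSPA8, HSPH1, DNAJB1, HSP90AA1 and BAG3. LNCaP is a human line from a prostate cancer metastasis, dependent on the androgen receptor. The 18 libraries form 6 groups of 3: an shRNA against FOXA1 together with one against HIF1A, the FOXA1 shRNA with the compound KC7F2, the FOXA1 shRNA alone, the HIF1A shRNA alone, the control vector pGIPZ with KC7F2, and pGIPZ alone. FOXA1 is a forkhead factor that opens chromatin for the androgen receptor, HIF1A is the subunit of a hypoxia factor whose protein is degraded when oxygen is present, and KC7F2 (40 µM for 24 h) is an inhibitor of HIF1A. Cells in each of these groups, the pGIPZ controls included, were infected with lentivirus for 5 days and spent the last 24 h in 100 µM CoCl2, which mimics hypoxia. Every group used here received the mimic. Whether the triplicates were separate cultures is not stated, and p-values therefore reflect only how far these libraries differ, which may be technical. The vehicle of KC7F2 and the vector of the HIF1A shRNA are not stated.

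Heat shock proteins keep other proteins folded. Small heat shock proteins such as CRYAB, HSPB1 and HSPB8 hold unfolding proteins without using ATP. HSP70 proteins bind and release clients in an ATP cycle, started by J-domain proteins such as DNAJB1 and reset by exchange factors such as HSPH1 and BAG3, and HSP90 matures signalling clients, steroid receptors and HIF1A among them. HSPA8 and HSP90AA1 are abundant in unstressed cells, while HSPA1A, HSPA1B, DNAJB1 and BAG3 are classic targets of heat shock factor 1, which binds repeated GAA units in their promoters. BAG3 joins HSPB8 and HSP70 in a complex that sends misfolded proteins to selective autophagy.

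The promoters of 4 chaperones, printed from the RefSeq table (GRCh38.p14), show how such units are laid out in genes that moved in different ways after HIF1A knockdown. HSPB8, DNAJB1 and HSPA1B were higher in that comparison and HSPA8 was lower. The fall of HSPA8 held in 12 of 18 alternative runs of the processing, and under quantile normalisation it was absent (0.06 ± 0.10, adjusted p = 0.671 in limma). Each line gives the 250 bases before the start of a transcript, 5′ to 3′ on the gene's strand, and capitals mark a pair of facing units, GAA and TTC in either order with 2 bases of any kind between them.
HSPB8 (chr12:119178681-119178930, + strand): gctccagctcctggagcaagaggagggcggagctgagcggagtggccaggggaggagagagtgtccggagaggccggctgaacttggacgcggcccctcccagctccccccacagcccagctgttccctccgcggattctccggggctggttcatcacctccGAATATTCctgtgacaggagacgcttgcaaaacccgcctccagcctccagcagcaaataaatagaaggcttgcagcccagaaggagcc
DNAJB1 (chr19:14518398-14518647, - strand): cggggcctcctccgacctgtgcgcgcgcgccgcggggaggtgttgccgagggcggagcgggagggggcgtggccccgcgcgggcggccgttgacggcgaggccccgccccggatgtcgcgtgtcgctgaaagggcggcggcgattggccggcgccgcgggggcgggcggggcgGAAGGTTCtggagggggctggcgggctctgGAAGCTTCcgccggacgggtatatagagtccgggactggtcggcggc
HSPA1B (chr6:31827488-31827737, + strand): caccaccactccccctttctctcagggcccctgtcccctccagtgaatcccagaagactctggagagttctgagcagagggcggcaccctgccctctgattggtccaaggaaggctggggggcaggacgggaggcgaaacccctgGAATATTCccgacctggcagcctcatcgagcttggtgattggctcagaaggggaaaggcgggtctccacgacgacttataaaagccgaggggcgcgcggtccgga
HSPA8 (chr11:123062137-123062386, - strand): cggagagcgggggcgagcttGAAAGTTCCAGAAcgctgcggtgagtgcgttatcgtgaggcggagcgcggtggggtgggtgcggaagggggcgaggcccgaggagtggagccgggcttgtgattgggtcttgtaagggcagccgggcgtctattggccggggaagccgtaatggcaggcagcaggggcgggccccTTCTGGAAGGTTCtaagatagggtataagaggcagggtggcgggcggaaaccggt
Of the 10 genes, 9 had entries in the table and CRYAB had none. The 9 genes have 12 windows, which run from 250 bases before to 50 after a start. A pair of units was present in 8 of the 12 windows, and in 13.5% of the table's 35116 windows. The form of 3 units (GAA, TTC, GAA or TTC, GAA, TTC, again with 2 bases between neighbours), which contains 2 overlapping pairs, was present in 2 of the 12, those of HSPA8 (230 and 55 bases before the start) and of the inner start of HSP90AA1 (88 bases before), and in 0.490% of windows in the table. HSPB8 had a pair 88 bases before the start and another at 4 bases after it, HSPA1B had 1 pair 105 bases before, and the printed DNAJB1 window had pairs 77 and 47 bases before. Of the other DNAJB1 windows, the outer one held no pair and the inner one held 1. The windows of BAG3 and HSPH1 and the outer window of HSP90AA1 held neither form. The short core of the hypoxia response element (ACGTG or GCGTG) was in 7 of the 12 windows, against 48.4% of the table's windows, and a forkhead core (TGTTTAC or TATTTAC) was in 1, an outer window of HSP90AA1, against 5.97%. Motifs were searched on both strands, and a match describes these letters only.

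Libraries held 3.26 to 12.1 (in units of 1e6 reads), recovered from the spacing of the lowest values, and those with a FOXA1 shRNA were shallower, at 3.26 to 8.43 with both shRNAs, 6.69 to 9.20 with KC7F2 and 5.17 to 7.70 with the FOXA1 shRNA alone, against 10.3 to 11.6 in pGIPZ. The shRNAs lowered their targets: FOXA1 changed by -1.47 ± 0.16 (log2 fold change ± SE) with the FOXA1 shRNA and HIF1A by -2.49 ± 0.23 with the HIF1A shRNA. HIF1A mRNA itself was higher with the FOXA1 shRNA alone, at 89.9 ± 8.998 RPKM against 23.1 ± 7.91 RPKM in pGIPZ. In the doubly infected cells FOXA1 mRNA stood at 64.5 ± 5.77 RPKM, against 34.1 ± 1.51 RPKM with the FOXA1 shRNA alone, a difference of 0.91 ± 0.16 (adjusted p = 0.000302). The effect of the FOXA1 shRNA on FOXA1 was -0.89 ± 0.16 under HIF1A knockdown, and its difference from the effect without it, 0.58 ± 0.22, did not pass (adjusted p = 0.142). The 9 LNCaP luminal markers reached 1 RPKM, with a summed level of 768 to 2104 RPKM per library, while 1 of 3 basal, 1 of 4 leukocyte, 1 of 3 endothelial and 1 of 4 fibroblast markers did so. Library 1 of pGIPZ and libraries 1 and 3 of pGIPZ with KC7F2 carried more signal in short genes: short genes exceeded long ones by 0.38 to 0.52 log2 units there, against -0.19 to 0.09 in the others.

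Values are RPKM, reads scaled to transcript length and library depth, which can be compared between genes. Changes are log2 fold changes of RPKM + 0.5 with their SE, a scale that understates changes of low genes, and folds are taken on that scale. The words rise and fall are used at a Benjamini-Hochberg adjusted p below 0.05 in limma over the 12900 genes with at least 1 RPKM in 3 libraries. Of the 10 chaperones 9 passed that filter, and HSPA1A did not. In bulk RNA, fewer cells with a transcript and less of it per cell cannot be told apart.

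In pGIPZ cells under the mimic the chaperones covered a wide range of levels. HSPA8 averaged 601 ± 44.9 RPKM (SD, n = 3), rank 52 among the 26443 genes, followed by HSPB1 at 357 ± 48.8 and HSP90AA1 at 168 ± 57.7 RPKM. BAG3 stood at 30.1 ± 2.06, DNAJB1 at 23.6 ± 0.443 and HSPH1 at 17.2 ± 0.484 RPKM. The small heat shock proteins CRYAB and HSPB8 were low, at 2.57 ± 1.005 and 2.22 ± 0.153 RPKM, or ranks 9691 and 10027. Neighbours in this order were separate in their library values, except that CRYAB and HSPB8 overlapped. HSPA1B was listed at 4.78 ± 0.635 RPKM and HSPA1A at 0, 0.0355 and 0 RPKM. HSPA1A and HSPA1B are near-identical copies whose reads may be shared, as may reads of HSPA8, HSPB1 and HSP90AA1 with their processed pseudogenes, and the transcript length behind the RPKM of HSPA1A and HSPA1B came out at 4.89 and 5.00 times their exon length in GENCODE, so the levels of both are not set against those of other genes. HSPA1A was listed at 0 in 11 of the 18 libraries and reached at most 0.0355 RPKM, which gives no comparison.

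Across the 6 groups, CRYAB and HSPB8 moved far more than the rest. The span between the highest and the lowest group mean was 3.76 log2 units for CRYAB and 2.43 for HSPB8. For the other 7 tested genes it ran between 0.30 (HSPH1) and 0.59 (DNAJB1 and HSPB1). A span over 1 log2 unit was found in 29.3% of all tested genes, whose median span was 0.72.

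**Figure D1:**
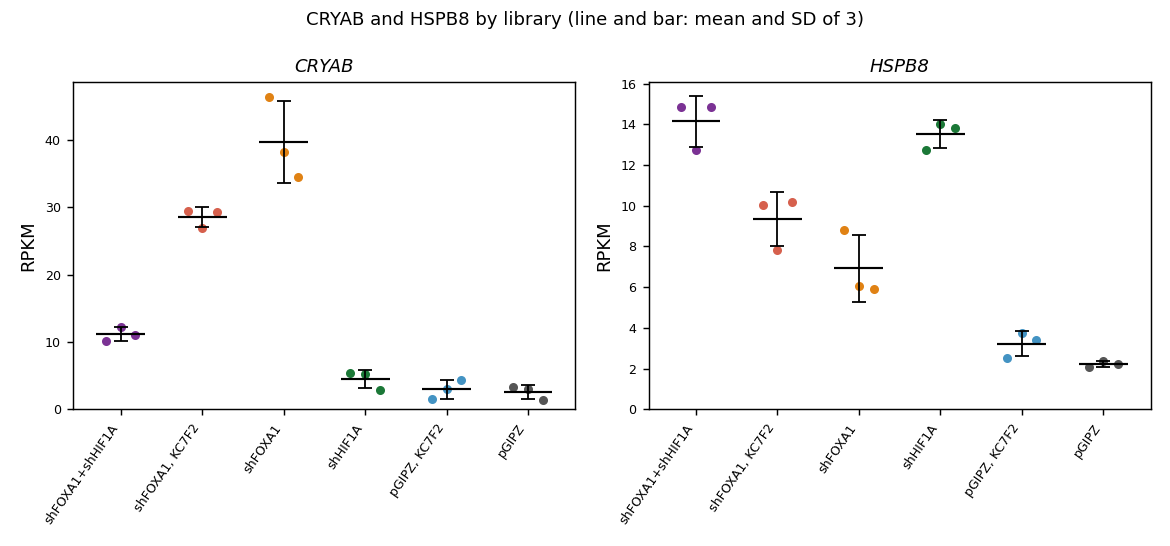
RPKM of CRYAB and HSPB8 (vertical axes, from 0) in the 18 libraries, by group (horizontal axis); points are libraries, lines and bars are the mean and SD of 3. CRYAB is highest in the shFOXA1 libraries (34.5 to 46.3 RPKM) and HSPB8 in the groups with the HIF1A shRNA (12.7 to 14.9 RPKM).

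CRYAB (alpha-B crystallin, a small heat shock protein of lens, muscle and heart that binds desmin and other filaments) rose after FOXA1 knockdown. It was at 46.3, 38.3 and 34.5 RPKM in the shFOXA1 libraries, against 3.33, 2.95 and 1.43 RPKM in pGIPZ. The groups did not overlap, and the change was 3.76 ± 0.29, or 13.5-fold (adjusted p = 6.43e-08). With the HIF1A shRNA added, CRYAB fell to 10.2, 12.3 and 10.96 RPKM in the doubly infected cells, against the shFOXA1 values above, a change of -1.78 ± 0.29 that left 29.1% (adjusted p = 0.000139). It still stood above cells with the HIF1A shRNA alone, at 5.37, 5.25 and 2.91 RPKM, by 1.26 ± 0.29 (adjusted p = 0.00711). The FOXA1 effect was therefore smaller under HIF1A knockdown, and the difference between the 2 effects, -2.50 ± 0.41, passed its own test (adjusted p = 0.000915). FOXA1 mRNA was higher in the doubly infected cells than in shFOXA1 cells, and its part in the CRYAB difference was not tested.

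KC7F2 gave no change of CRYAB that passed the test. It was at 29.4, 26.9 and 29.3 RPKM in shFOXA1 cells with KC7F2, below each shFOXA1 library, but the change of -0.46 ± 0.29 did not pass (adjusted p = 0.488). Against pGIPZ cells with KC7F2, at 1.53, 3.07 and 4.29 RPKM, CRYAB rose by 3.15 ± 0.29 (adjusted p = 5.74e-07), and the difference between the FOXA1 effects with and without KC7F2 was -0.61 ± 0.41 (adjusted p = 0.854). HIF1A knockdown alone gave 0.72 ± 0.29 (adjusted p = 0.0533), with libraries that overlapped those of pGIPZ, and it passed in 6 alternatives. The adjusted p was 0.0292 without pGIPZ 1, 0.0174 without shHIF1A 3, 0.0102 with the 3 libraries of higher short-gene signal left out (0.91 ± 0.25), 0.0441 with the 5 RPKM filter, 0.0357 with the trend on length and GC content removed and 0.0466 with voom. In reads, CRYAB rests on 16 to 41 in pGIPZ and 193 to 386 in shFOXA1. The gene lies on chromosome 11, 111908565 to 111923722 on the minus strand (GENCODE 29, GRCh38), and that span holds HSPB2, another small heat shock protein on the plus strand. HSPB2 had 0 to 6 reads in a library.

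HSPB8 (HSP22, the small chaperone that pairs with BAG3; chromosome 12, 119178642 to 119221131) rose most after HIF1A knockdown. Its levels were 12.7, 14.03 and 13.8 RPKM in the shHIF1A libraries, against 2.07, 2.37 and 2.23 RPKM in pGIPZ. That was a change of 2.37 ± 0.15, or 5.16-fold, with no overlap (adjusted p = 1.12e-08). FOXA1 knockdown raised HSPB8 too, to 8.82, 6.05 and 5.89 RPKM, by 1.43 ± 0.15 (adjusted p = 3.13e-06), and under KC7F2 by 1.41 ± 0.15 (adjusted p = 4.11e-06), at 10.05, 7.84 and 10.2 RPKM against 2.52, 3.73 and 3.401 RPKM.

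The rises of HSPB8 did not add up. Doubly infected cells were at 14.9, 12.7 and 14.9 RPKM, which is 1.00 ± 0.15 above shFOXA1 (adjusted p = 8.18e-05) and 0.06 ± 0.15 above shHIF1A (adjusted p = 0.855), with values that overlapped those of shHIF1A. The difference between the FOXA1 effects with and without HIF1A knockdown was -1.37 ± 0.22 (adjusted p = 0.000707). KC7F2 gave 0.44 ± 0.15 in pGIPZ cells and 0.42 ± 0.15 in shFOXA1 cells (adjusted p = 0.211 and 0.157). In pGIPZ cells the libraries with KC7F2 lay above those without it, and in shFOXA1 cells they overlapped. The change in shFOXA1 cells passed without shFOXA1 1, at 0.60 ± 0.14 (adjusted p = 0.0398).

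The third small heat shock protein, HSPB1 (HSP27, which binds actin and is found in many carcinomas; chromosome 7, 76302544 to 76304295), was abundant in each group and gave no call in the limma model of all 6 groups, though some alternatives called it. It was at 421, 425 and 401 RPKM in shFOXA1, against 401, 365 and 305 RPKM in pGIPZ, a change of 0.23 ± 0.16 (adjusted p = 0.314). That change passed under quantile normalisation (0.42 ± 0.10, adjusted p = 0.00632) and with the trend on length and GC content removed (0.32 ± 0.10, adjusted p = 0.0295). The shHIF1A libraries held 385, 248 and 291 RPKM, a change of -0.23 ± 0.16 from pGIPZ (adjusted p = 0.26). Between the doubly infected libraries, at 448, 444 and 368 RPKM, and shHIF1A the change was 0.47 ± 0.16 (adjusted p = 0.056), and it passed under several other settings, such as voom on the recovered reads (0.46 ± 0.14, adjusted p = 0.0284). Library shHIF1A 1 decides part of this: without it the change was 0.64 ± 0.15 (adjusted p = 0.0129), and that of shHIF1A against pGIPZ was -0.40 ± 0.15 (adjusted p = 0.0484). Without doubly infected library 3 the change was 0.56 ± 0.17 (adjusted p = 0.0495). HSPB1 was highest in pGIPZ with KC7F2, at 547, 403 and 430 RPKM, each above every pGIPZ library. The change from pGIPZ was 0.36 ± 0.16 (adjusted p = 0.353). Libraries 1 and 3 of pGIPZ with KC7F2 carried more signal in short genes, and the part of that signal here was not tested.

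**Figure D2:**
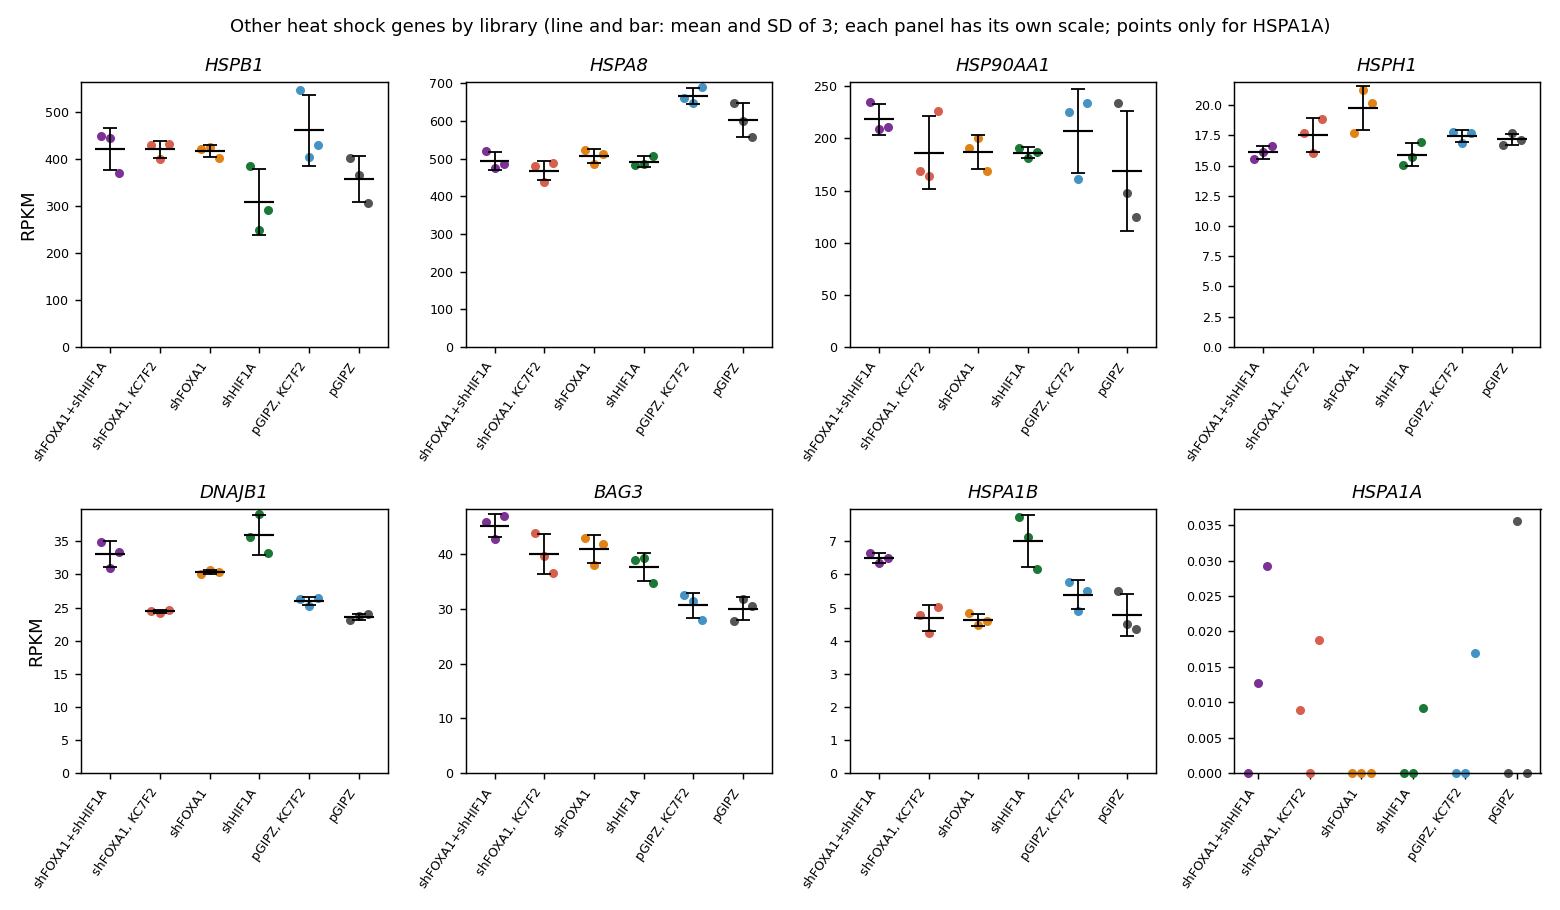
RPKM (vertical axes, from 0, each with its own scale) of the other 8 genes in the 18 libraries by group; points are libraries, lines and bars the mean and SD of 3, with points only for HSPA1A. HSPA8 is lower in the 4 groups with an shRNA against FOXA1 or HIF1A (438 to 522 RPKM) than in the pGIPZ groups (557 to 689.7 RPKM), and DNAJB1 and HSPA1B are highest with the HIF1A shRNA.

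The J-domain protein DNAJB1 (HSP40; chromosome 19, 14514770 to 14529770) rose after each knockdown alone. It was at 29.99, 30.7 and 30.4 RPKM in shFOXA1 and at 35.6, 39.1 and 33.2 RPKM in shHIF1A, against 23.1, 23.7 and 24.01 RPKM in pGIPZ. Neither group overlapped pGIPZ, and the changes were 0.35 ± 0.08 and 0.59 ± 0.08 (adjusted p = 0.00251 and 1.23e-05). Doubly infected cells, at 34.9, 30.97 and 33.4 RPKM, did not differ beyond the threshold from either single knockdown, by 0.12 ± 0.08 against shFOXA1 (adjusted p = 0.226) and -0.12 ± 0.08 against shHIF1A (adjusted p = 0.344). The interaction of both shRNAs was -0.47 ± 0.11 (adjusted p = 0.0121), and -0.47 ± 0.13 (adjusted p = 0.0567) when only the groups compared entered the fit. With KC7F2, shFOXA1 cells held 24.5, 24.2 and 24.7 RPKM of DNAJB1, below each shFOXA1 library without it, a fall of 0.31 ± 0.08 (adjusted p = 0.0314). That call was lost when any 1 of the 6 libraries was left out (adjusted p = 0.0822 to 0.110). In pGIPZ cells KC7F2 gave 0.14 ± 0.08 (adjusted p = 0.52), and the interaction of FOXA1 knockdown with KC7F2 was -0.44 ± 0.11 (adjusted p = 0.158).

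BAG3 (chromosome 10, 119651370 to 119677819), the exchange factor that hands clients of HSP70 and HSPB8 to autophagy, stood higher in the groups with an shRNA. It was at 45.9, 42.8 and 46.9 RPKM in doubly infected cells, 42.9, 38.1 and 41.9 RPKM in shFOXA1 and 38.9, 39.3 and 34.7 RPKM in shHIF1A, against 27.8, 31.9 and 30.5 RPKM in pGIPZ. The lowest of these 9 libraries was above the highest pGIPZ library. BAG3 rose by 0.44 ± 0.09 after FOXA1 knockdown (adjusted p = 0.0026), by 0.32 ± 0.09 after HIF1A knockdown (adjusted p = 0.0124) and by 0.38 ± 0.09 after FOXA1 knockdown under KC7F2 (adjusted p = 0.00583), and its change was 0.26 ± 0.09 in the doubly infected cells against shHIF1A (adjusted p = 0.0756). The HIF1A knockdown call was lost under both other scalings (adjusted p = 0.0663 and 0.145), with only the groups compared (adjusted p = 0.0644), with the trend on length and GC content removed (adjusted p = 0.0768) and without shHIF1A 2 (adjusted p = 0.0509), and held in 13 of 18 alternatives. With the 3 libraries of higher short-gene signal left out, the change under KC7F2 was 0.34. That fit keeps only library 2 of pGIPZ with KC7F2, so no call is read from it.

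Among the HSP70 genes, the inducible HSPA1B (chromosome 6, 31827735 to 31830255) rose with the HIF1A shRNA in both backgrounds. It was at 7.74, 7.13 and 6.18 RPKM in shHIF1A, against 5.51, 4.501 and 4.34 RPKM in pGIPZ, a change of 0.51 ± 0.11 (adjusted p = 0.00118). In doubly infected cells it was at 6.65, 6.33 and 6.49 RPKM, against 4.82, 4.47 and 4.59 RPKM in shFOXA1, a change of 0.45 ± 0.11 (adjusted p = 0.00362). The groups did not overlap in either comparison. FOXA1 knockdown gave -0.04 ± 0.11 (adjusted p = 0.838), and KC7F2 gave 0.16 ± 0.11 in pGIPZ cells and 0.01 ± 0.11 in shFOXA1 cells (adjusted p = 0.600 and 0.983). The sharing of reads with HSPA1A stands beside each of these values.

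The constitutive HSPA8 (HSC70, which also uncoats clathrin vesicles; chromosome 11, 123057489 to 123063230) moved the other way. It was at 482, 485 and 508 RPKM in shHIF1A, against 647, 599.9 and 557 RPKM in pGIPZ, a fall of 0.29 ± 0.09 that left 82.0% (adjusted p = 0.018). Values of 522, 485 and 513 RPKM in shFOXA1 gave -0.25 ± 0.09 (adjusted p = 0.0605), without overlap with pGIPZ. Under KC7F2, FOXA1 knockdown lowered HSPA8 to 479, 438 and 487 RPKM, against 659, 648 and 689.7 RPKM, by -0.51 ± 0.09 (adjusted p = 0.000525). These falls depend on scaling: under quantile normalisation the change was 0.06 ± 0.10 after HIF1A knockdown (adjusted p = 0.671) and -0.02 ± 0.10 under KC7F2 (adjusted p = 0.909). Median-ratio scaling instead gave a larger fall after HIF1A knockdown, -0.38 ± 0.08 (adjusted p = 0.00106). The call after HIF1A knockdown was also lost without shHIF1A 1 or shHIF1A 2 (adjusted p = 0.0529 and 0.0559), and the change after FOXA1 knockdown passed without pGIPZ 3 (-0.30 ± 0.09, adjusted p = 0.0225).

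HSPH1 (HSP110, an exchange factor for HSP70 that helps to dissolve aggregates; chromosome 13, 31134974 to 31162388) varied least. It was at 17.7, 21.3 and 20.2 RPKM in shFOXA1, against 16.7, 17.7 and 17.1 RPKM in pGIPZ, a change of 0.19 ± 0.09 (adjusted p = 0.119) that passed under median-ratio scaling (0.27 ± 0.09, adjusted p = 0.0402). Adding the HIF1A shRNA brought it to 15.5, 16.1 and 16.6 RPKM, against those shFOXA1 values, a fall of 0.28 ± 0.09 (adjusted p = 0.0166). That call was lost without shFOXA1 2, shFOXA1 3 or doubly infected library 1 (adjusted p = 0.0539 to 0.0814).

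HSP90AA1 (the stress-responsive cytosolic HSP90; chromosome 14, 102080738 to 102139699) gave no call in the 9 comparisons, though some alternatives called it. Values were 191, 200.4 and 169 RPKM in shFOXA1 and 191, 181 and 187 RPKM in shHIF1A, against 234, 147 and 124 RPKM in pGIPZ, with changes of 0.20 ± 0.19 each (adjusted p = 0.502 and 0.45). The pGIPZ libraries were far apart and spanned both other groups, and the highest of them is library 1, which carried more signal in short genes. The transcript length behind the RPKM of HSP90AA1 came out at 4074 nt, and the part of short-gene signal in this spread was not tested. With the 3 libraries of higher short-gene signal left out, both were called, at 0.46 ± 0.14 (adjusted p = 0.03 and 0.0164), and without pGIPZ 1 alone the second was (0.46 ± 0.16, adjusted p = 0.0349). Quantile normalisation with no library left out also called both, at 0.38 ± 0.10 and 0.31 ± 0.10 (adjusted p = 0.0127 and 0.0217). The level in doubly infected cells was 235, 209 and 211 RPKM.

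**Figure D3:**
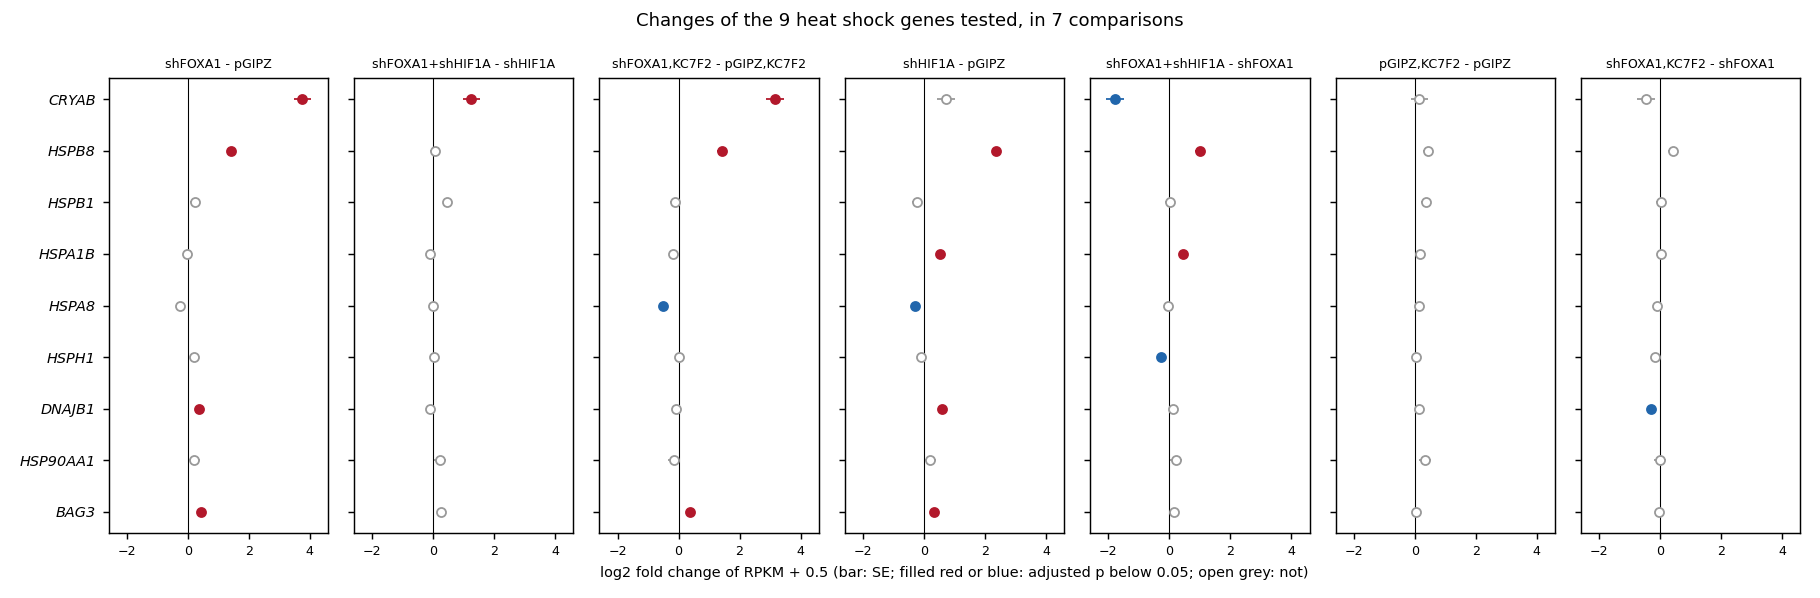
Log2 fold changes of RPKM + 0.5 (horizontal axes) of the 9 tested genes (vertical axis) in 7 comparisons, 1 per panel; bars are SEs, filled red or blue points passed an adjusted p below 0.05 and open grey points did not. The changes over 1 log2 unit belong to CRYAB and HSPB8, and no gene is filled for KC7F2 in pGIPZ cells.

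Counted by comparison, FOXA1 knockdown raised 4 of the 9 tested chaperones (CRYAB, HSPB8, BAG3 and DNAJB1) and lowered 0 in the limma model of all 6 groups, beside 24.1% of all tested genes called, 9.52% higher and 14.6% lower. HSPA8 was called lower by voom, with the replicate number as a block, with the trend on length and GC content removed and without pGIPZ 3. The median change of the 9 was 0.23, against -0.09 over all genes. HIF1A knockdown raised 4 (HSPB8, DNAJB1, HSPA1B and BAG3) and lowered 1 (HSPA8), beside 42.0% of all genes called, 25.9% higher and 16.1% lower, with medians of 0.32 and 0.07. These chaperones were chosen with earlier results of these data known, so their shares are not ranked against those of all genes. Of the calls over all genes 61.7% were higher after HIF1A knockdown, and 51.0% under median-ratio scaling. That scaling called 3 of the 9 higher, beside 2745 of the 12900 tested genes. FOXA1 knockdown under KC7F2 raised 3 (CRYAB, HSPB8 and BAG3) and lowered 1 (HSPA8), beside 32.9% of all genes called, 8.88% higher and 24.1% lower, with medians of -0.09 and -0.15.

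In doubly infected cells against shFOXA1, 2 rose (HSPB8 and HSPA1B) and 2 fell (CRYAB and HSPH1), beside 37.5% of all genes called, 24.0% higher and 13.5% lower, with medians of 0.12 and 0.10. Against shHIF1A, 1 rose (CRYAB) and 0 fell, beside 14.5% of all genes called, 5.27% higher and 9.25% lower, with medians of 0.06 and -0.06. Of the calls over all genes 36.3% were higher there, and 46.7% under quantile normalisation. Quantile normalisation called 3 of the 9 higher, beside 898 of the 12900 tested genes. KC7F2 in pGIPZ cells called 0 of the 9 in limma, with 2 at an unadjusted p below 0.05 and 0 by voom, beside 2.04% of all genes called, 1.05% higher and 0.992% lower. Of the calls over all genes in that comparison 51.3% were higher, and 34.1% under median-ratio scaling. In shFOXA1 cells KC7F2 lowered 1 (DNAJB1) and raised 0, beside 4.08% of all genes called, 2.37% lower and 1.71% higher, with medians of -0.03 and -0.01. The interaction of the shRNAs was called, in the negative direction, for 3 of the 9 (CRYAB, HSPB8 and DNAJB1), and in the positive direction for 0, beside 7.61% of all genes, 4.45% negative and 3.16% positive. That of FOXA1 knockdown and KC7F2 was called for 0 of 9, with 1 at an unadjusted p below 0.05 and 0 by voom, beside 0.0775% of all genes, 0.0155% positive and 0.0620% negative. These comparisons share libraries, so their counts are not independent of each other.

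Scaling moved the median of all genes by over 0.1 in 2 comparisons. It was -0.15 for FOXA1 knockdown under KC7F2 and -0.005 after median-ratio scaling, a shift of 0.15, and 0.10 for the HIF1A shRNA added to FOXA1 knockdown and -0.01 after it, a shift of -0.11. On that scaling, FOXA1 knockdown under KC7F2 gave 3.30 ± 0.28 for CRYAB, 1.56 ± 0.16 for HSPB8, 0.54 ± 0.10 for BAG3 and -0.35 ± 0.08 for HSPA8. The HIF1A shRNA added to FOXA1 knockdown gave -1.90 ± 0.28 for CRYAB, 0.88 ± 0.16 for HSPB8, 0.33 ± 0.10 for HSPA1B and -0.41 ± 0.09 for HSPH1. All 8 remained called there. Over all genes, 26.9% of calls were higher in the first and 64.0% in the second, against 49.3% and 48.3% after median-ratio scaling.

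The wider chaperone network was read from lists of related genes. Of 6 other small heat shock proteins (HSPB2, HSPB3, HSPB6, HSPB7, HSPB9 and CRYAA), none reached the level needed for a test. After FOXA1 knockdown, where 9.52% of all tested genes were called higher and 14.6% lower with a median of -0.09, the mitochondrial chaperones held 0 genes that rose and 4 of 8 that fell, with a median of -0.43. They include HSPD1 (HSP60), at 141 ± 7.93 RPKM in shFOXA1 and 227 ± 54.8 RPKM in pGIPZ, which fell by 0.66 ± 0.15 (adjusted p = 0.00328), and TRAP1, the HSP90 of mitochondria, which fell by 0.58 ± 0.10 (adjusted p = 0.000663). Of the chaperonin TRiC and prefoldin, which fold actin and tubulin, 3 of 14 fell and 0 rose (median -0.32), with TCP1 at -0.50 ± 0.16 (adjusted p = 0.0302), a share near that of all genes. Of 18 cochaperones of HSP70 and HSP90, BAG2 and CHORDC1 fell and 0 rose (median -0.28), a share below that of all genes called lower. None of 9 other J-domain proteins and none of 4 heat shock factor genes (HSF1, HSF2, HSF4 and the regulator HSBP1) was called by limma, with 2 and 0 at an unadjusted p below 0.05. HSPA4L, a relative of HSPH1, rose by 0.71 ± 0.17 (adjusted p = 0.0055), alone among 5 other cytosolic HSP70, HSP110 and HSP90 genes. With the 3 libraries of higher short-gene signal left out, 4 of the 8 mitochondrial chaperones were still called lower, against 0 of the chaperonin and prefoldin genes, 0 of the cochaperones, and 2 of 9 J-domain proteins called higher. Under median-ratio scaling 3 J-domain proteins were called higher, and the median of that list was 0.04 there against -0.04.

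Among 8 partners of BAG3 and HSPB8 in selective autophagy, 3 rose after FOXA1 knockdown and 0 fell (median 0.23). Over all genes 9.52% were called higher and 14.6% lower there (median -0.09). WIPI1, which acts at forming autophagosomes, rose by 1.08 ± 0.15 (adjusted p = 6.41e-05), and SYNPO2, which binds BAG3 in muscle, by 1.02 ± 0.20 (adjusted p = 0.00155), though only to 0.562 ± 0.11003 RPKM against 0.02299 ± 0.0139 RPKM. SYNPO2 stayed below 1 RPKM in both of these groups and entered the test through libraries of other groups, which limits this call. After HIF1A knockdown 4 of these 8 rose and 1 fell (median 0.43), beside 25.9% higher and 16.1% lower over all genes (median 0.07). WIPI1 rose to 34.9 ± 3.18 RPKM, against 9.52 ± 2.11 RPKM in pGIPZ, and GABARAPL1, an ATG8 protein of autophagosomes, to 86.3 ± 8.904 RPKM, against 40.95 ± 2.46 RPKM (changes of 1.84 ± 0.15 and 1.06 ± 0.10, adjusted p at most 8.41e-07). The receptor SQSTM1 (p62) fell by 0.55 ± 0.12 in that comparison (adjusted p = 0.00111) and rose by 0.83 ± 0.12 with KC7F2 in pGIPZ cells (adjusted p = 0.000562), at 344 ± 16.9 RPKM against 195 ± 30.5 RPKM. It was the 1 gene called among these chaperone and autophagy lists for KC7F2 in pGIPZ cells.

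HIF1A knockdown, which called 25.9% of all genes higher and 16.1% lower (median 0.07), also raised 4 of 8 tested heat-inducible genes outside the chaperones and lowered 0 (median 0.35), with 3 higher and 1 lower under median-ratio scaling. IER5, an immediate early gene that feeds back on heat shock factor 1, rose by 1.72 ± 0.18 (adjusted p = 1.49e-06), at 13.5 ± 2.24 RPKM in shHIF1A against 3.83 ± 1.14 RPKM in pGIPZ, and in doubly infected cells by 1.80 ± 0.18 over shFOXA1 (adjusted p = 9.47e-07). PPP1R15A (GADD34) rose by 0.51 ± 0.11 (adjusted p = 0.00186). Of the other J-domain proteins 3 of 9 rose, near the share of all genes, and 0 fell, DNAJB4 by 0.90 ± 0.18 (adjusted p = 0.000783), and DNAJB4 was higher again, by 1.89 ± 0.18, in doubly infected cells against shFOXA1 (adjusted p = 5.98e-07). Chaperonin and prefoldin genes fell in 4 of 14 and mitochondrial chaperones in 3 of 8, with 0 rises in both lists. Without the 3 libraries of higher short-gene signal, 1 chaperonin or prefoldin gene was called lower and 3 higher, and 1 mitochondrial chaperone was called lower. Under quantile normalisation 6 chaperonin or prefoldin genes were called lower and 3 higher. Cochaperones split, with 3 higher and 4 lower of 18, with a median of 0.05 that was -0.04 under median-ratio scaling. None of the 4 heat shock factor genes was called by limma (0 at an unadjusted p below 0.05), and 1 was called lower under either other scaling.

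**Figure D4:**
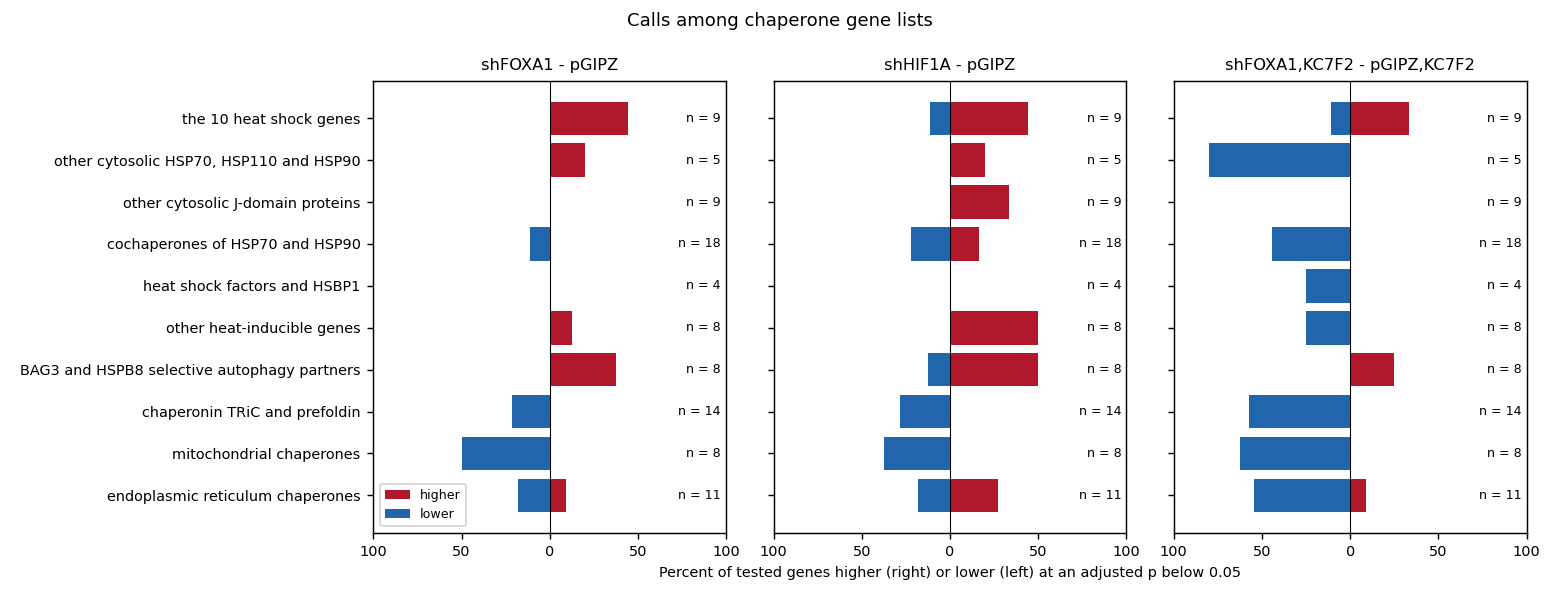
Percent of tested genes called higher (right, red) or lower (left, blue) in 10 lists (vertical axis), for FOXA1 knockdown, HIF1A knockdown and FOXA1 knockdown under KC7F2; n is the number tested. In the third panel 8 of 18 cochaperones and 8 of 14 chaperonin and prefoldin genes are called lower. So are 5 of 8 mitochondrial chaperones and 4 of 5 other cytosolic HSP70, HSP110 and HSP90 genes, with 0 higher in each of these lists. Those counts fall to 2, 2, 4 and 1 under quantile normalisation. Of the 9 heat shock genes 3 are called higher and 1 lower. Over all tested genes 8.88% are called higher and 24.1% lower.

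FOXA1 knockdown under KC7F2 called more of the network lower. Of the cochaperones 8 of 18 fell and 0 rose (median -0.45), among them the HSP90 partners FKBP4 (-0.62 ± 0.11), STIP1 (-0.59 ± 0.11) and CACYBP (-0.80 ± 0.20), with adjusted p at most 0.00652. Chaperonin and prefoldin genes fell in 8 of 14 (median -0.48) and mitochondrial chaperones in 5 of 8 (median -0.57). Of the other cytosolic HSP70, HSP110 and HSP90 genes 4 of 5 fell, HSP90AB1, the constitutive HSP90, by 0.43 ± 0.13 (adjusted p = 0.022). Over all genes 24.1% were called lower in that comparison and the median was -0.15. Whether these falls differ from those without KC7F2 was tested by the interaction, which called 0 of these 18, 14, 8 and 5 genes in limma (2, 0, 1 and 0 at an unadjusted p below 0.05). That interaction called only 0.0775% of all genes, so the counts of 0 do not show that the falls are alike. Libraries 1 and 3 of pGIPZ with KC7F2 carried more signal in short genes. Leaving out the 3 libraries of that kind keeps only library 2 of pGIPZ with KC7F2 as reference, so calls of that fit are not counted. Median-ratio scaling called 4 of 18 cochaperones, 4 of 14 chaperonin and prefoldin genes and 5 of 8 mitochondrial chaperones lower. It called 0 of the 5 HSP70, HSP110 and HSP90 genes lower. Under quantile normalisation these counts were 2, 2, 4 and 1.

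Most markers of other cell types stayed below 1 RPKM. KRT14 (a basal keratin), CD68 (macrophages, also found in other cells), COL1A1 (fibroblasts) and VWF (endothelium) were the 1 gene of their lists to reach the test. They differed between the groups. CD68 stood at 18.5 ± 0.697 RPKM in shFOXA1 and 4.61 ± 0.895 RPKM in shHIF1A, against 6.499 ± 1.13 RPKM in pGIPZ. KRT14 stood at 4.26 ± 1.07 and 0.704 ± 0.137 RPKM in those groups, against 1.53 ± 0.254 RPKM in pGIPZ, and COL1A1 at 1.87 ± 0.245 and 6.84 ± 0.733 RPKM, against 2.19 ± 0.402 RPKM. VWF was at 0.680 ± 0.113 and 2.34 ± 0.335 RPKM, against 0.653 ± 0.102 RPKM. The 4 leukocyte markers summed to 18.1 to 19.3 RPKM in shFOXA1 and 3.57 to 5.19 RPKM in shHIF1A, against 5.44 to 7.68 RPKM in pGIPZ, with the B cell marker MS4A1 at 0 in every library. The luminal markers summed to 1282 to 1421 RPKM in shFOXA1 and 993 to 1186 RPKM in shHIF1A, against 1681 to 2104 RPKM in pGIPZ. In doubly infected cells, where CRYAB was lower than in shFOXA1, CD68 was at 10.5 ± 0.841 RPKM and also fell against shFOXA1 (-0.79 ± 0.14, adjusted p = 0.000412), and COL1A1, at 4.16 ± 0.414 RPKM, rose (0.98 ± 0.16, adjusted p = 0.000132). Of the 9 luminal markers 5 fell and 1 rose in that comparison, beside 13.5% lower and 24.0% higher over all genes. Their sum was 768 to 873 RPKM. With KC7F2 in shFOXA1 cells CD68 fell as well, at 12.1 ± 1.03 RPKM (-0.60 ± 0.14, adjusted p = 0.0263). The part of these genes in the chaperone changes was not tested.

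The genes whose pattern over the 18 libraries was most like that of CRYAB were the homeobox gene IRX3, the glucose transporter SLC5A1 and the membrane-bound carbonic anhydrase CA4. Their centred log2 values differed from those of CRYAB by 0.31, 0.32 and 0.33 on average. IRX3 averaged 14.9 ± 1.89 RPKM in doubly infected cells, 47.3 ± 5.53 in shFOXA1 with KC7F2, 56.8 ± 4.35 in shFOXA1, 7.34 ± 2.02 in shHIF1A and 6.05 ± 0.834 in pGIPZ with KC7F2, against 4.78 ± 0.324 RPKM in pGIPZ. Like CRYAB it was highest in shFOXA1 and lower with the HIF1A shRNA added. Near to HSPB8 were the interferon-inducible GTPase GBP3 and the extracellular chaperone CLU (clusterin), at mean differences of 0.29 and 0.30. GBP3 averaged 3.17 ± 0.267 RPKM in doubly infected cells and 2.67 ± 0.210 in shHIF1A, against 0.444 ± 0.153 RPKM in pGIPZ. Unlike HSPB8, whose values overlapped there, CLU was higher in doubly infected cells than in shHIF1A. CLU averaged 144 ± 1.78 RPKM in doubly infected cells, 55.9 ± 1.96 in shFOXA1 with KC7F2, 41.7 ± 2.97 in shFOXA1, 73.4 ± 1.84 in shHIF1A and 28.8 ± 0.83003 in pGIPZ with KC7F2, against 16.8 ± 1.79 RPKM in pGIPZ.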

How the data were processed

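RNA of 18 LNCaP libraries (6 groups of 3, grouped by their titles and treatment labels) was sequenced. The authors deposited RPKM per gene. The submitters' processing notes name STAR and the build hg38. For the counter, the annotation and the strand setting the status is: not given in the sources used here. Of 26475 lines, 32 without values were left out. No count test was the main test because the deposited unit is RPKM. RPKM + 0.5 was log2 transformed, genes with at least 1 RPKM in 3 libraries were kept (12900), and limma 3.58.1 (R 4.3.3) fitted a model of all 6 groups with a trended prior, two-sided tests and Benjamini-Hochberg adjustment within each comparison. Scripts ran in Python 3.11.15, and the fit was tested on simulated data. The number of libraries and the depth, 3.26 to 12.1 in 1e6 reads, limit the precision. Depth was recovered from 2348 genes of at most 200 nt, and 12865 of the 12900 tested genes (99.7%) came out as whole reads in the 18 libraries, within 0.002 reads. Positions come from GENCODE 29 and promoters from RefSeq. The members and lists were chosen with earlier results of these data known. Genes named in lists are the most changed by adjusted p among those called, up to 3 per list and comparison, and the 3 genes most like CRYAB and HSPB8 were taken by mean absolute difference of centred log2 values. Some genes that this rule picks are not reported here. Alternatives were other pseudocounts (0.1 and 1), filters, scalings, designs and libraries left out, and, added after seeing the data, voom on the recovered reads.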

Additional observations from a re-analysis of the deposited data

Results flagged for a closer look

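For 3 chaperones the effect of FOXA1 knockdown differed between cells with and without the HIF1A shRNA, by the interaction term in limma. For CRYAB the difference between the effects was -2.50 on the log2 scale, with 1.26 under HIF1A knockdown and 3.76 without it. For HSPB8 it was -1.37, with 0.06 under HIF1A knockdown and 1.43 without it. For DNAJB1 it was -0.47, with -0.12 under HIF1A knockdown and 0.35 without it. FOXA1 mRNA itself changed by -0.89 under HIF1A knockdown and -1.47 without it, a difference that did not pass (adjusted p = 0.142 in limma). Its part in the differences of these 3 chaperones was not tested.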

How the results depend on the processing

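Calls for CRYAB (FOXA1 knockdown in each background, HIF1A shRNA added to FOXA1 knockdown, and the shRNA interaction), HSPB8 (both single knockdowns, FOXA1 knockdown under KC7F2, HIF1A shRNA added and the interaction), DNAJB1 and BAG3 after FOXA1 knockdown, DNAJB1 after HIF1A knockdown, and HSPA1B with the HIF1A shRNA in both backgrounds held in every alternative run. After FOXA1 knockdown, members called higher numbered 7 under quantile normalisation, and members called lower 1 with the replicate block, with the trend on length and GC content removed and with voom, and 0 to 1 with a library left out. For FOXA1 knockdown under HIF1A knockdown, higher calls numbered 2 with the 5 RPKM filter, the replicate block and voom, 3 with median-ratio scaling, quantile normalisation and the trend removed, and 1 to 2 with a library left out. Lower calls for HIF1A knockdown numbered 0 with the 3 libraries of higher short-gene signal left out, with no filter, with only the groups compared and under quantile normalisation, 2 with the trend removed, and 0 to 1 with a library left out. Lower calls for FOXA1 knockdown under KC7F2 numbered 0 under quantile normalisation, and those for the HIF1A shRNA added to FOXA1 knockdown 1 to 2 with a library left out. For KC7F2 added to FOXA1 knockdown, lower calls numbered 0 with voom and 0 with a library left out, and higher calls 0 to 1. Under quantile normalisation the HSPA8 change after HIF1A knockdown was 0.0597 (adjusted p = 0.671), against -0.29, and the HSPB1 change for FOXA1 knockdown under KC7F2 was 0.32 (adjusted p = 0.0287), against -0.12. The cause was not tested.

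Over all genes, FOXA1 knockdown gave 1228 higher and 1883 lower calls, and 762 and 934 with only the groups compared. Under HIF1A knockdown it gave 680 and 1193, and 480 and 772 without shHIF1A 1 or 516 and 685 without shHIF1A 2. Under KC7F2 it gave 1145 and 3105, against 1829 and 1883 with median-ratio scaling, 1712 and 1822 with quantile normalisation, and 819 and 1992 without pGIPZ with KC7F2 1. Leaving out the 3 libraries of higher short-gene signal keeps only library 2 of pGIPZ with KC7F2. Calls of that fit are therefore not counted for comparisons with this group. KC7F2 gave 135 and 128 in pGIPZ cells, against 101 and 195 with median-ratio scaling and 9 and 12 with only the groups compared. It gave 294 and 203 without pGIPZ 1, and 72 to 102 and 71 to 100 without pGIPZ 2, pGIPZ 3, or library 1 or 3 of pGIPZ with KC7F2. In shFOXA1 cells it gave 220 and 306, against 114 to 132 and 181 to 201 in 5 of the 6 fits with a library left out. The shRNA interaction gave 408 and 574, against 250 and 407 with only its groups and 627 and 577 without pGIPZ 3. That with KC7F2 gave 2 and 8, and 0 to 9 and 2 to 20 under the alternatives, with 20% of calls higher against 50% with median-ratio scaling. Same-numbered libraries correlated at -0.21 to 0.25 in their deviations from group means, and in 0 of 7 comparisons did the 3 pairs exceed 0.1, so the replicate number was not taken as a pairing. Depth limits CRYAB and HSPB8 most, with as few as 16 and 46 reads in a library.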
